A study of Mus musculus with 6 samples.

Results

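Transcripts of 10 genes of the integrated stress response were followed in the newborn mouse lens, on all 21 probe sets that the array's annotation assigns to them out of 45037. The genes were chosen by name with their measured transgenic minus wild-type differences on these arrays already known, so those differences are given as a description and the calls support nothing. The probe set with the highest mean stands for a gene, which makes them 10 of 18193 genes. They fall into an Atf4 arm (Atf3, Ddit3, Trib3, Chac1, Asns and Sesn2), an ER chaperone arm (Hspa5 and Xbp1), and Atf4 itself and Ppp1r15a, which belong to neither arm.

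Whole lenses of Balb/c mice aged 2 days were dissected and genotyped, and their total RNA was hybridised to Affymetrix arrays, 3 for the transgenic and 3 for the wild-type genotype. According to the design text 12 lenses per genotype were used, and how they were divided among the 3 replicates is not said. The labels name neither the transgene nor its promoter, nor whether the animals came from 1 founder line. It is not stated whether each replicate holds lenses of other animals, so errors and p-values cover only the variation among these 6 arrays, part or all of which may be technical. Transgenic replicates are written T1 to T3 and wild-type replicates W1 to W3. Values are log2 expression values after quantile normalization, and a difference is transgenic minus wild type on that scale.

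The integrated stress response starts when a kinase that senses amino acid shortage, unfolded protein in the endoplasmic reticulum (ER), heme shortage or double-stranded RNA phosphorylates the translation factor eIF2. General translation then drops while the mRNA of the transcription factor Atf4 is translated better, so that Atf4 activity can change with no change in Atf4 mRNA. Atf4 raises transcription of Atf3, Ddit3 (which encodes Chop), Trib3, Chac1, Asns and Sesn2. The unfolded protein response has further branches through Ire1, which splices Xbp1 mRNA, and Atf6, and these raise ER chaperones such as Hspa5 (which encodes BiP). Lens fiber cells make very large amounts of protein and later destroy their ER together with their other organelles.

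Of the members, 4 rose and 1 fell in the fit over all 18193 genes (limma, adjusted p under 0.05), where 1.93% of all genes were called higher and 2.61% lower. The groups did not overlap in 7 of the 10 genes, against 28.8% of all genes. The contrast had been used to choose the members, so nothing is read from these counts. With arrays shifted to a common median instead, the calls over all genes were 254 higher and 673 lower, against 352 and 475. Atf3 and Ddit3, both transcription factor genes, were close to 2 times as high in transgenic lenses, Chac1 and Trib3 were also higher, and Ppp1r15a, the feedback phosphatase subunit, was lower. Hspa5 and Xbp1 differed by less than 0.1 on their brightest probe sets. Atf4 mRNA was 0.31 lower and did not pass. 

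The promoters of 5 members are shown because a script found in them the motifs of the Atf4 branch or of the ER stress branch, or a cyclic AMP response element, to which Atf and Creb family factors can bind. Each sequence holds the 250 bases before the gene's start in RefSeq's annotation of GRCm38.p6, read 5′ to 3′ on the gene's own strand. Capitals mark the matches. Atf3 lies at chr1:191183334-191183583, minus strand, Chac1 at chr2:119350992-119351241, plus strand, Asns at chr6:7693210-7693459, minus strand, Ppp1r15a at chr7:45526269-45526518, minus strand, and Hspa5 at chr2:34771840-34772089, plus strand.
Atf3: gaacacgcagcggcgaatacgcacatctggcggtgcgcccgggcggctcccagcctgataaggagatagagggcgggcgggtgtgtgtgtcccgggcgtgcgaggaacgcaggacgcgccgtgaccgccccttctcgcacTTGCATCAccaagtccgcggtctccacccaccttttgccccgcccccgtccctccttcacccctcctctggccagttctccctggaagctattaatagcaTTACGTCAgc
Chac1: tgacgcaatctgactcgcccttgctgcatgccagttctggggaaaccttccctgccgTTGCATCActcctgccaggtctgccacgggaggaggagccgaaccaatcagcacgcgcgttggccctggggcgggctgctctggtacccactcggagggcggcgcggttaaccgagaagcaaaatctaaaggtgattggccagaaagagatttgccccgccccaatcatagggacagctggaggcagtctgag
Asns: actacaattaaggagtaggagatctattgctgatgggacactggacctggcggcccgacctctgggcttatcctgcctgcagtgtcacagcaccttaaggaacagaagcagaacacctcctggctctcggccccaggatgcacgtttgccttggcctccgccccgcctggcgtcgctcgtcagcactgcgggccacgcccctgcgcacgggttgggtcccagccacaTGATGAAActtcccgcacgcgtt
Ppp1r15a: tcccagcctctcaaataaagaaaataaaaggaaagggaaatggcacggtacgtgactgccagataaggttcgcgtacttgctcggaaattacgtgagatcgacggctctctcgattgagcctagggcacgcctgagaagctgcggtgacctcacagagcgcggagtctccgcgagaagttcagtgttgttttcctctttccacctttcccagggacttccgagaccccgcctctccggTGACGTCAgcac
Hspa5: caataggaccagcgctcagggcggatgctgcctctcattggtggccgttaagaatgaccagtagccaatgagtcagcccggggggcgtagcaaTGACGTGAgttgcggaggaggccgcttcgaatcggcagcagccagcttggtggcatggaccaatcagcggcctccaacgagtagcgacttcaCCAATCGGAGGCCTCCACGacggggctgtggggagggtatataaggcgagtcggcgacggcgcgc

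All 10 members had 1 promoter window in the RefSeq table, and 3 motifs were searched on both strands of each window, which runs from 250 bases before the start to a short way past it. The core of the C/EBP-ATF response element, through which Atf4 acts with a C/EBP partner, was searched as TGATGNAA. It was found in Atf3 (TTGCATCA, the reverse strand, at -110 to -103 from the start), Chac1 (TTGCATCA, -193 to -186), Asns (TGATGAAA, -23 to -16) and Trib3 (TTACATCA, 15 to 22 bases after the start). Of all 32851 windows, 3.97% held it. The cyclic AMP response element, searched as TGACGTNA, was found in Atf3 (TTACGTCA, -10 to -3), Ppp1r15a (TGACGTCA, -12 to -5) and Hspa5 (TGACGTGA, -157 to -150), and in 2.93% of all windows. The ER stress response element was searched as CCAAT and CCACG with 9 free bases between them. It was found in Hspa5 (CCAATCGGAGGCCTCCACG, -65 to -47) and in 0.119% of all windows. No motif overlapped another. The windows of Ddit3, Sesn2, Xbp1 and Atf4 held none of these letters. Of the 4 genes with the first motif, Atf3, Chac1 and Trib3 rose and Asns did not pass. Ddit3, whose window held none of the motifs, also rose. The members were chosen with their differences known, so nothing is read from setting motifs beside calls. A match describes letters, not binding, and a window without one says nothing about the factor.

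Atf3 encodes a stress-induced repressor and activator of the same leucine zipper family as Atf4. It stood at 5.73, 5.66 and 5.76 in T1, T2 and T3, against 4.59, 4.65 and 4.57 in W1, W2 and W3. The groups lay far apart, and each spread little (SD 0.052 and 0.043). The difference was 1.11 ± 0.079 (SE), or 2.16-fold (n = 3 each). Atf3 has a single probe set here. Its wild-type level lay between the lower quartile of the arrays, 4.11 to 4.21, and the median over all probe sets, 5.34, and the part of background signal in that value was not tested.

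Ddit3 encodes Chop, the factor that links prolonged ER stress to cell death. Its brightest probe set stood at 8.06, 8.06 and 8.20 in transgenic and 7.07, 7.04 and 7.29 in wild-type lenses. The highest wild-type array, W3, was well under the lowest transgenic one. The difference was 0.97 ± 0.10 (SE), or 1.96-fold. A second probe set stood at 4.30 to 4.49 in transgenic and 4.18 to 4.43 in wild-type lenses, near the lower quartile of the arrays, and the groups overlapped there (difference 0.11). Averaging both probe sets gave 0.54, which still passed.

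Chac1 encodes an enzyme that breaks down glutathione and is among the most inducible targets of Atf4. It stood at 6.99, 6.89 and 7.24 in transgenic and 5.30, 6.21 and 5.61 in wild-type lenses. All transgenic arrays were above all wild-type arrays, but the wild-type arrays spread over 0.9 log2 units (SD 0.46, against 0.18 in transgenic lenses). Its difference was the largest of the 10 genes, 1.34 ± 0.22 (SE), or 2.53-fold, and also the least precise, with a 95% interval of 0.83 to 1.84. Without T1, T2 or W3 it did not pass (limma adjusted p = 0.0593, 0.0602 and 0.0757), and with 1 array left out its difference ran from 1.14 to 1.59.

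Trib3 encodes a pseudokinase that is induced by Atf4 and Chop and restrains their activity. Its brightest probe set stood at 6.58, 6.25 and 6.32 in transgenic and 5.76, 5.75 and 5.62 in wild-type lenses. T1 was the highest array and no value overlapped between groups. The difference was 0.67 ± 0.11 (SE), or 1.59-fold. A second probe set, of the kind that may also detect other transcripts by its name's x_at ending, stood at 5.83 to 6.05 and at 5.37 to 5.99, where W2 overlapped the transgenic range (difference 0.25). Averaging both gave 0.46, which did not pass (limma adjusted p = 0.0627). Without W2 or W3 the brightest probe set did not pass either (0.0677 and 0.0742).

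**Figure D1:**
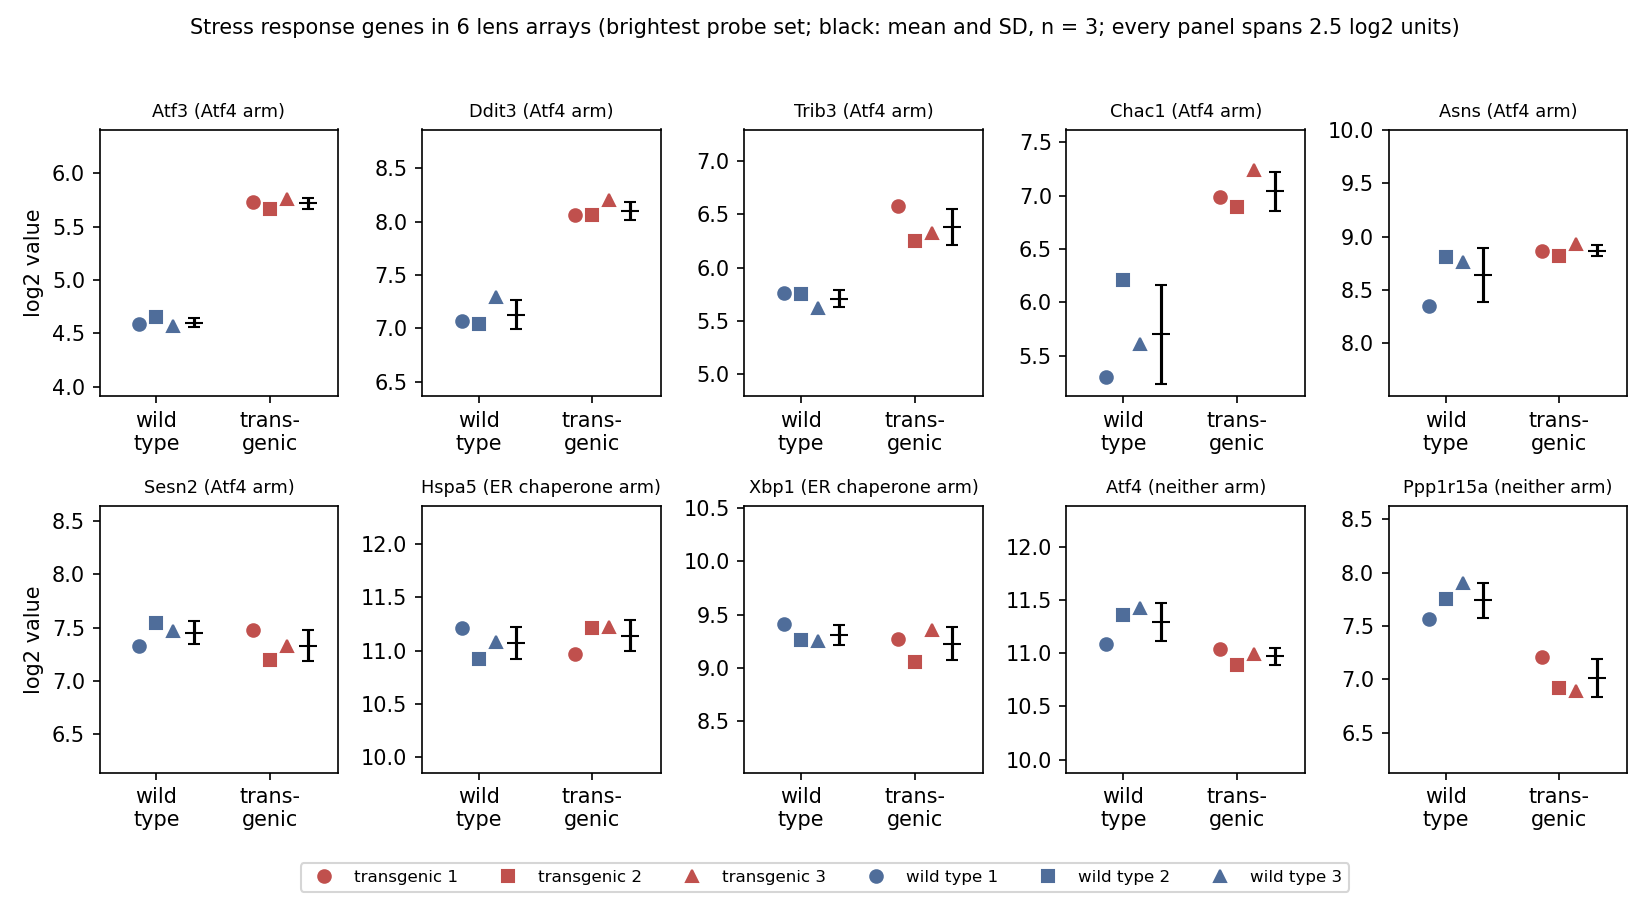
Log2 value of the brightest probe set of each of the 10 genes in the 3 wild-type (blue) and 3 transgenic (red) arrays, with the mean and SD in black (n = 3). Atf3, Ddit3, Trib3, Chac1 and Asns were higher in every transgenic array, Ppp1r15a and Atf4 were lower in every one, and Sesn2, Hspa5 and Xbp1 overlapped. Asns and Atf4 were separated only narrowly and did not pass.

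The remaining genes of the Atf4 arm did not pass. Asns encodes asparagine synthetase, a textbook target of Atf4 under amino acid shortage. It stood at 8.87, 8.82 and 8.93 in transgenic and 8.35, 8.81 and 8.76 in wild-type lenses. The groups only just failed to overlap, and W1 was far below the others. The difference was 0.23 (95% interval -0.067 to 0.53), and without W1 it was 0.088. A second probe set gave 0.17, with overlapping groups. Sesn2 encodes sestrin 2, which restrains mTORC1 when amino acids are short. It stood at 7.48, 7.20 and 7.33 in transgenic and 7.33, 7.54 and 7.47 in wild-type lenses. The groups overlapped and the difference was below 0, at -0.11 (95% interval -0.35 to 0.13). A dimmer probe set of Sesn2 differed by -0.26. Asns and Chac1 ordered the arrays alike within each group, T3 over T1 over T2 and W2 over W3 over W1.

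Atf4 was not higher at the mRNA level. Its brightest probe set stood at 11.04, 10.89 and 10.99 in transgenic and 11.09, 11.36 and 11.42 in wild-type lenses. All transgenic arrays were below all wild-type arrays, T1 and W1 by only 0.05. The difference was -0.31 ± 0.11 (SE; 95% interval -0.56 to -0.060) and did not pass over all genes. The other probe sets of Atf4, both dimmer, differed by -0.048 and 0.010 with overlapping groups. Translation of Atf4 was not measured by these arrays.

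Ppp1r15a encodes Gadd34, the inducible subunit that lets a phosphatase remove the phosphate from eIF2 and so ends the response. It is itself known as an Atf4 and Chop target. Its single probe set stood at 7.21, 6.92 and 6.89 in transgenic and 7.57, 7.75 and 7.90 in wild-type lenses. The groups did not overlap, in the direction opposite to Atf3 and Ddit3. It fell by 0.73 ± 0.12 (SE) on the log2 scale, a 1.66-fold difference. Without T2, W2 or W3 it did not pass (limma adjusted p = 0.0900, 0.0812 and 0.0777), with differences of -0.69, -0.72 and -0.65. Its constitutive counterpart Ppp1r15b differed by -0.35 and did not pass (adjusted p = 0.0997).

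Neither gene of the ER chaperone arm passed on its brightest probe set. Hspa5, which encodes the main chaperone of the ER lumen, stood at 10.97, 11.21 and 11.22 in transgenic and 11.21, 10.92 and 11.08 in wild-type lenses. The groups overlapped and the difference was 0.067 (95% interval -0.19 to 0.33). A second probe set differed by 0.064. Its x_at probe set stood at 8.68, 8.68 and 8.46 in transgenic and 7.86, 8.03 and 7.88 in wild-type lenses. It was higher in all transgenic arrays, by 0.68 ± 0.099 (SE), and passed among all probe sets, of which 1.47% were called higher. The x_at ending marks a probe set that may also detect other transcripts, and which transcript it followed was not tested. The other 2 probe sets of Hspa5 overlapped between groups.

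Xbp1 encodes the factor whose mRNA Ire1 splices. Its brightest probe set stood at 9.27, 9.06 and 9.36 in transgenic and 9.41, 9.26 and 9.25 in wild-type lenses, which overlapped. The difference was -0.078 (95% interval -0.32 to 0.16). The other 3 probe sets differed by -0.14, 0.006 and 0.009, each with overlapping groups. These values are total signals per probe set, so the share of spliced Xbp1 mRNA was not measured.

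**Figure D2:**
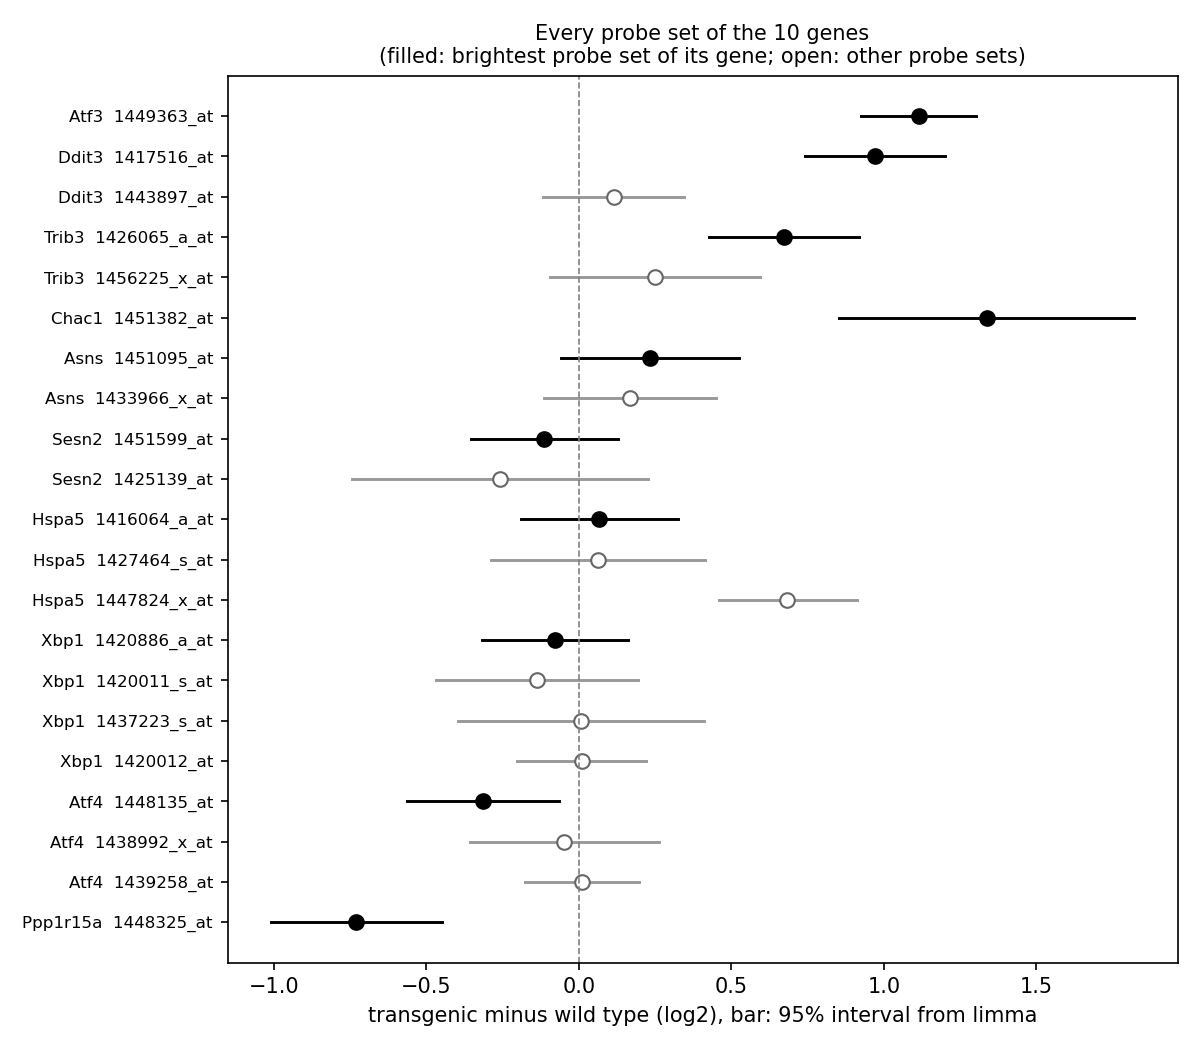
Transgenic minus wild-type difference (log2) with its 95% interval from limma for all 21 probe sets of the 10 genes, filled for the brightest probe set of a gene and open for the others. The x_at probe set of Hspa5, at 0.68, stands apart from the other Hspa5 probe sets at 0.067 and 0.064, and the open points of Ddit3 and Trib3 lie closer to 0 than the filled ones.

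Over the 21 probe sets, 6 passed in the fit over all probe sets (5 higher, 1 lower), where 3.68% of all probe sets were called. The 5 higher ones were the brightest of Atf3, Ddit3, Trib3 and Chac1 and the x_at probe set of Hspa5. By direction, 1.47% of all probe sets were called higher and 2.21% lower, and in 27% the groups did not overlap. In Ddit3 and Trib3 the second probe set did not pass.

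Set against each other, the arms lay apart in every transgenic array. The mean of the 6 Atf4 arm genes, relative to the wild-type mean, was 0.75, 0.60 and 0.76 in T1, T2 and T3 and -0.14, 0.13 and 0.014 in W1, W2 and W3. The mean of Hspa5 and Xbp1 was -0.069, -0.051 and 0.10 in the transgenic and 0.12, -0.10 and -0.024 in the wild-type arrays. The Atf4 arm was thus higher in all transgenic arrays while the ER chaperone arm overlapped. The arm difference was 0.81, 0.66 and 0.65 in T1, T2 and T3, with a mean of 0.71 ± 0.092 (SD, n = 3). In wild-type lenses it was -0.26, 0.23 and 0.037 (SD 0.25, n = 3). Each SD is the spread within its own group, not the error of the difference between groups. No p is given, since the genes of both arms were chosen with these values known. Leaving out 1 gene of the Atf4 arm moved that arm's mean between 0.58 (without Chac1) and 0.86 (without Sesn2). With the mean of all probe sets of a gene the Atf4 arm stood at 0.58, the ER chaperone arm at 0.11 and the arm difference at 0.47. Within the wild-type group the arms ran in opposite order: W1 was lowest in the Atf4 arm and highest in the ER chaperone arm, and W2 the reverse. W1 also had the widest deposited value distribution, with an upper quartile of 7.21 against 7.09 to 7.12 in the other arrays, and the part of this in the result was not tested. Without W1 the arm difference was 0.57.

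**Figure D3:**
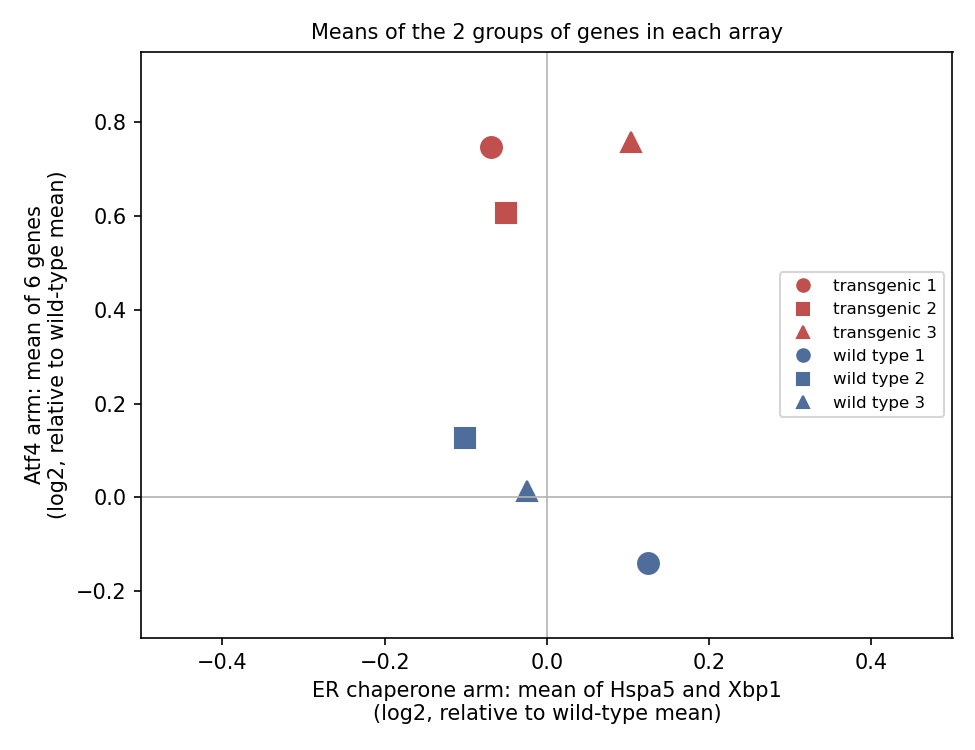
Mean of the 6 Atf4 arm genes against the mean of Hspa5 and Xbp1 in each array, both in log2 units relative to the wild-type mean. The transgenic arrays (red) lie at 0.60 to 0.76 on the vertical axis and the wild-type arrays (blue) at -0.14 to 0.13, while both overlap on the horizontal axis.

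Some values bear on the tissue behind these differences. Foxe3, a lens epithelium factor and the gene with the largest change in the study, stood at 13.33 to 13.42 in transgenic and 8.54 to 8.86 in wild-type lenses. The labels do not name the transgene and the source of this signal was not tested, so it is not read as a share of epithelium. All 9 measured lens markers lay above the median gene, and their summed linear level was 129000 to 134000 in transgenic and 140000 to 144000 in wild-type lenses, without overlap. The crystallin genes among them, Cryaa, Cryab, Cryba1 and Crybb1, stood at 14.36 to 14.59, near the top of the arrays' range, where a change may not show. Only Bfsp1, Bfsp2 and Lim2 were lower in every transgenic array. Of these, Bfsp1, which encodes a lens fiber filament protein, fell by 1.66 on the log2 scale (limma adjusted p = 0.000406), and its partner Bfsp2 differed by -0.45 and did not pass; the part of this in the members' differences was not tested. T3 was high in markers of other tissues. The summed linear level of 10 skin and cornea markers was 1060 to 25700 in transgenic lenses (highest in T3) and 1000 to 1830 in wild-type lenses. For 8 skeletal muscle markers it was 409 to 7750 against 530 to 693, and for 10 vessel and mesenchyme markers 1210 to 12400 against 1110 to 1430, again highest in T3. Of these 10, Col1a1, Col1a2, Col3a1, Dcn and Lum were highest in T3. The vessel markers Pecam1, Cdh5, Kdr and Tek were not, nor was Pdgfrb. Only Tek was called, with a rise of 0.49 (limma adjusted p = 0.0465). The other vessel markers went the other way without passing, Pecam1 by -0.26, Cdh5 by -0.17 and Kdr by -0.15, with overlapping groups. Without T3 the differences were 1.09 for Atf3, 0.92 for Ddit3, 0.70 for Trib3, 1.24 for Chac1 and -0.67 for Ppp1r15a, and all of these still passed. All 9 measured neural retina markers were lower on average in transgenic lenses, with a median difference of -0.38 (1 fell), and had summed levels of 1540 to 2650 in transgenic and 1920 to 3240 in wild-type lenses. Red blood cell markers summed to 186 to 199 and 184 to 190, and immune markers to 671 to 797 and 542 to 766. Only 0 of 4 red blood cell and 2 of 8 immune markers lay above the median gene, so these sums cannot show that such cells were absent. The immune marker Cd3e rose by 0.49 (limma adjusted p = 0.0303) and was the only 1 of the 8 called. Of these 8, 4 differed above 0 and 4 below, with a median of 0.013. Ptprc was lower in every transgenic array (-0.20) and did not pass. In whole lenses a change in the share of a cell type and a change of RNA per cell cannot be told apart, and the part of retina in these results was not tested.

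The wider pathway was read from 8 lists that hold 123 measured genes outside the members, of which 4 rose and 6 fell (limma, adjusted p under 0.05), where 4.55% of all genes were called. The median difference over the 123 genes was 0.047, against 0.011 over all genes. Counts at an unadjusted p under 0.05 are given beside the calls of each list, and 11.5% of all genes were higher and 10.9% lower by that measure. These lists were written with earlier results of these data known. The other 113 did not pass, and no list had more than 2 calls.

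The first lists hold genes for amino acid supply, many of them known Atf4 targets. Of 13 genes for amino acid synthesis and one-carbon metabolism, 2 rose, 0 fell and 11 did not pass, with a median of -0.014 (at an unadjusted p under 0.05, 3 were higher and 1 lower). Psat1, which encodes an enzyme of serine synthesis, stood at 10.58, 10.44 and 10.57 in transgenic and 9.94, 9.89 and 9.73 in wild-type lenses. It rose by 0.68 ± 0.092 (SE; limma adjusted p = 0.00895), with no overlap between groups. A second Psat1 probe set differed by 0.30 and did not pass. Aldh1l2, which encodes a mitochondrial folate enzyme, stood at 5.94, 6.09 and 5.92 against 5.11, 5.18 and 4.86 and rose by 0.93 ± 0.11 (limma adjusted p = 0.00458). Both calls held with any 1 array left out, and Psat1 was lost with the replicate number as a block (adjusted p = 0.0532). Phgdh, the enzyme gene of the first step of serine synthesis, differed in the other direction without passing (-0.34; adjusted p = 0.0952), and Mthfd1l differed by 0.24.

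Of 10 amino acid transporter genes 0 passed (limma; at an unadjusted p under 0.05, 2 were higher and 0 lower), and their median was 0.062. Slc7a11, which encodes the cystine carrier known as a target of Atf4, differed by -0.21, Slc7a3 by 0.52, Slc7a1 by 0.23 and Slc3a2 by 0.10. Of 14 aminoacyl-tRNA synthetase genes, 0 rose and 1 fell (at an unadjusted p under 0.05, 1 was higher and 3 lower), with a median of -0.029. Lars, the leucyl-tRNA synthetase gene, fell by 0.58 ± 0.13 (SE; limma adjusted p = 0.0459). Its call was lost without any array other than W1 (adjusted p up to 0.147). Mars1 differed by -0.36, Eprs by 0.31 and Yars by -0.23.

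Of 17 other regulators that Atf4 or Chop are known to raise, 1 rose and 1 fell (at an unadjusted p under 0.05, 8 were higher and 2 lower). Their median difference was 0.18. All transgenic arrays were above all wild-type arrays in 9 of the 17 and below them in 3, against 15.3% and 13.5% of all genes. Over the 123 genes of all lists, 37 were above and 21 below in this way. Of the 18 immediate early genes, 7 were above and 2 below. Sqstm1, which encodes the autophagy receptor p62, rose by 0.50 ± 0.094 (SE; limma adjusted p = 0.0294), but was lost with any 1 array left out (adjusted p up to 0.111). A second, dim probe set of it differed by 0.13. Nupr1, which encodes a small stress-induced chromatin protein, stood at 9.70, 8.79 and 9.31 in transgenic and 11.18, 11.93 and 11.75 in wild-type lenses. It fell by 2.35 ± 0.26 (limma adjusted p = 0.00356) and by nearly as much on its second probe set (-2.28), with no overlap on either. Its call held with any 1 array left out. Ddit4, a stress-induced inhibitor of mTORC1, differed by 0.41 (adjusted p = 0.0639) and Atf5, an Atf4 relative with the same translational control, by -0.49 (adjusted p = 0.0657).

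Upstream of Atf4, 0 of 16 genes for eIF2 kinases, eIF2, eIF2B and their regulators passed (limma; at an unadjusted p under 0.05, 2 were higher and 2 lower), with a median of -0.014. The kinase genes Eif2ak1 (-0.068), Eif2ak3 (-0.003) and Eif2ak4 (-0.025) overlapped between groups, and Eif2ak2 differed by 0.24. These kinases act through phosphorylation, which arrays do not see. The listed eIF2 subunit gene Eif2s1 was not among the genes analysed. Eif2a, which is counted in this list, does not encode a subunit of eIF2. Eif2b3, a subunit gene of the exchange factor that phosphorylated eIF2 blocks, differed by -0.44 (adjusted p = 0.0559) and the kinase inhibitor gene Dnajc3 by 0.33. Eif2ak1, Eif2ak3 and Eif2ak4 lie outside the naming rule and were chosen after their values were seen.

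Of 21 genes for ER folding and the Ire1 and Atf6 branches, 1 rose and 1 fell (at an unadjusted p under 0.05, 2 were higher and 5 lower), with a median of -0.030. Dnajb9, an ER co-chaperone gene raised by spliced Xbp1, stood at 9.10, 8.90 and 8.87 in transgenic and 8.63, 8.32 and 8.24 in wild-type lenses. It rose by 0.56 ± 0.13 (SE; limma adjusted p = 0.0493). Pdia6, a disulfide isomerase gene, stood at 11.03, 11.03 and 11.06 against 11.36, 11.36 and 11.42 and fell by 0.34 ± 0.076 (adjusted p = 0.0481). A second, dim probe set of Pdia6 differed by 0.18 with overlapping groups, and the mean of both by -0.080 (adjusted p = 0.599). In the fit over all probe sets the brightest one did not pass (0.0548). Dnajb9 was lost without any array other than W1 (adjusted p up to 0.157) and Pdia6 without any array (up to 0.148). Pdia4 differed by -0.30 and Atf6b by -0.23, while Hsp90b1 and Calr, which encode further lumenal chaperones and were chosen after their values were seen, differed by -0.10 and 0.016. Of 14 genes for ER-associated degradation, 0 rose and 1 fell (limma; at an unadjusted p under 0.05, 3 were higher and 2 lower), with a median of 0.044. The conjugating enzyme gene Ube2j1 fell by 0.53 ± 0.083 (adjusted p = 0.0157), and a second probe set of similar brightness differed by -0.013. Without T2, W2 or W3 it was lost (adjusted p up to 0.0765). Derl1 (0.40), Derl2 (-0.39) and Ube2g2 (0.30) did not pass.

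Atf3 is also raised with immediate early genes, so these were read beside it. Of 18 such genes, 0 rose and 2 fell (limma; at an unadjusted p under 0.05, 6 were higher and 2 lower), with a median of 0.21. Zfp36, which encodes a protein that destabilises mRNA, fell by 0.81 ± 0.15 (SE; limma adjusted p = 0.0269), and Ier5 fell by 0.49 ± 0.11 (0.0439), with its second probe set at -0.51. Zfp36 was lost without any array other than T3 (adjusted p up to 0.104) and Ier5 likewise (up to 0.144). Fos stood at 6.34, 6.96 and 7.28 in transgenic and 6.01, 6.23 and 5.99 in wild-type lenses, highest in T3, and its difference of 0.78 did not pass (adjusted p = 0.0887). Egr3 differed by 0.34. Without T3, the array high in markers of other tissues, the list median was 0.13. With any other array left out it was 0.18 to 0.23.

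**Figure D4:**
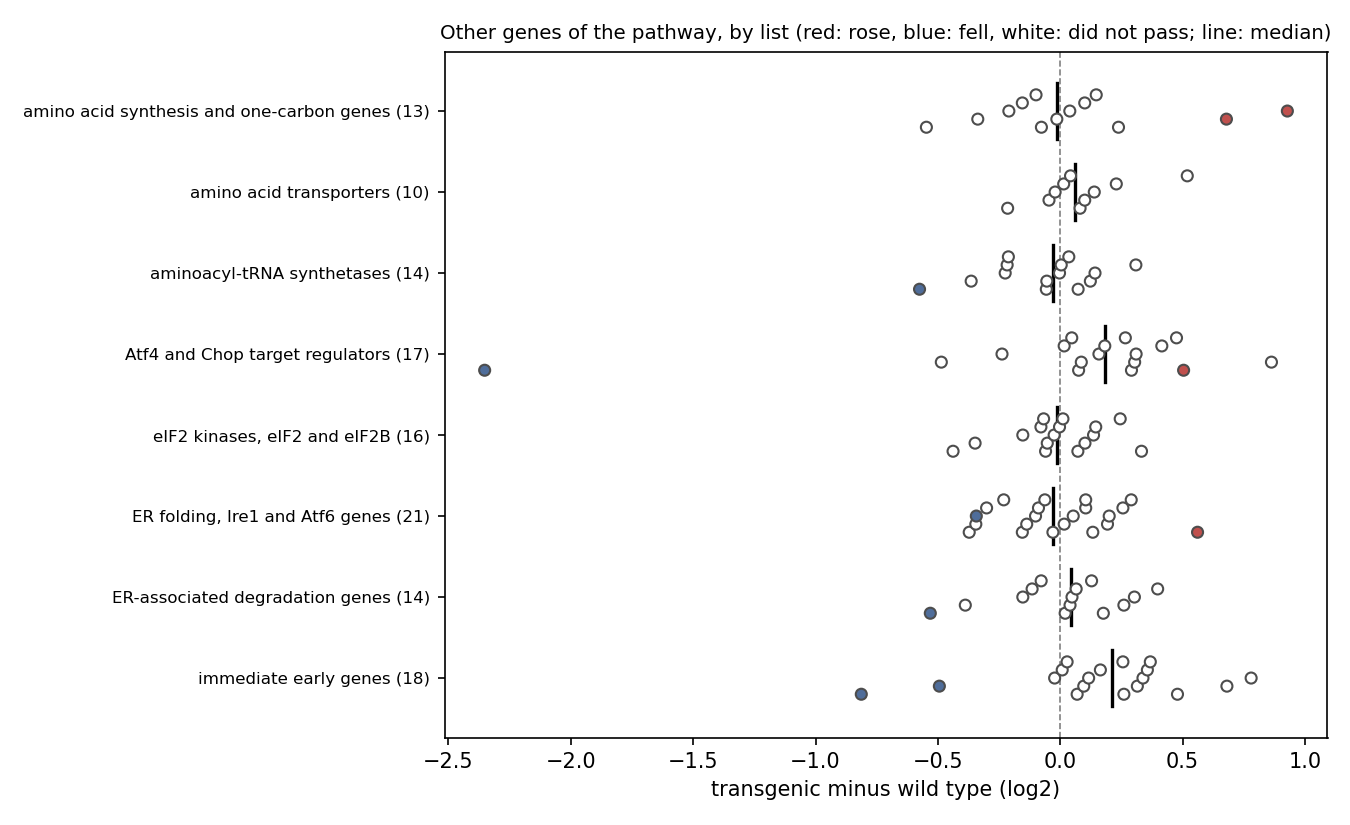
Transgenic minus wild-type difference (log2) of each of the 123 other pathway genes, in rows by list with the number of genes in brackets. Red points rose, blue points fell, white points did not pass, and black lines are list medians, which run from -0.030 to 0.21. Nupr1, at -2.35, lies far to the left.

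Likeness to Atf3 over the 6 arrays was the root mean square difference of values relative to the wild-type mean. Among genes at or above the median level with no provisional symbol, the closest were Tgfb3 (0.084 log2 units), Fabp3 (0.096) and S100a1 (0.11). Tgfb3 encodes a secreted growth factor, Fabp3 a fatty acid carrier and S100a1 a calcium-binding protein. For Ddit3 they were Tgfb3 (0.088), Osbpl5 (0.090) and Ednrb (0.12), which encode the same growth factor, an oxysterol-binding family protein and an endothelin receptor. Tgfb3 stood at 7.16, 7.14 and 7.37 in transgenic and 6.14, 6.11 and 6.22 in wild-type lenses. These likenesses describe 6 arrays of 2 groups. The values were not scaled, so a gene with a group difference of like size ranks high.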

How the data were processed

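The deposited table held log2 values per probe set on 6 Affymetrix arrays, the scale being read from the values; how the authors summarised and normalised them was not found in the labels or headers. Per the labels' protocols, total RNA was labelled with biotin by in vitro transcription. After 64 control probe sets were set aside, upper quartiles differed by 0.12, above a tolerance of 0.1, so arrays were quantile normalised. Names came from the platform annotation in GEO, updated by gene identifier through RefSeq (GRCm38.p6; 99.4% matched), and the probe set with the highest mean stood for each gene. Genotypes were compared with lmFit and eBayes in limma 3.58.1 (R 4.3.3), Benjamini-Hochberg adjusted over 18193 genes or 45037 probe sets, threshold 0.05. The fit was tested on independent values simulated from its own variance model. Such a test cannot show how the fit does with an array like T3 or with technical replicates. SDs are over 3 arrays, and the number of arrays limits the precision.

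The members and lists were chosen with earlier results of these data known. The text names all 10 members, the 4 genes of each list with the smallest p, the 3 genes most like Atf3 or Ddit3, and Foxe3; others are marked. Of the 127 listed pathway genes, 123 were analysed here. No label says that a replicate number marks a shared litter, batch or day, so the numbers were not used as a block. Deviations of same-numbered replicates from their group means correlated at -0.052, 0.084 and 0.028. With 3 arrays per group these values cannot show whether the replicates were paired. Alternatives were the values as deposited, a common median, averaging the probe sets of a gene, dim probe sets left out, trended robust variances, a replicate block and each array left out.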

Additional observations from a re-analysis of the deposited data

How the results depend on the processing

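The 5 members that passed kept their direction under each alternative run, as did the 32 pathway genes named by the rule; Eif2ak1, Eif2ak3, Eif2ak4, Hsp90b1 and Calr were not rerun singly. Hspa5 (-0.009 without W2) and Xbp1 (0.007 without T2), which overlapped between groups, crossed 0. Atf3 and Ddit3 passed under all 12 alternatives. Shifting arrays to a common median moved the calls from 352 higher and 475 lower to 254 and 673. With that setting 2 of the target regulators, 2 of the eIF2 genes, 2 of the ER folding genes and 2 of the ER-associated degradation genes fell and 0 ER folding genes rose. On the values as deposited, 2 target regulators, 2 eIF2 genes and 2 ER-associated degradation genes fell and 0 ER folding genes rose. With the mean of all probe sets of a gene, 0 target regulators rose, 0 ER folding genes rose and 0 fell, 0 ER-associated degradation genes fell, 1 immediate early gene rose and the arm difference was 0.47. With dim probe sets left out, which tested fewer genes, 1 eIF2 gene fell, and 1 ER-associated degradation gene rose and 2 fell. With trended robust variances, 2 synthetases fell, 2 target regulators rose and 2 fell, 1 eIF2 gene fell, and 1 ER-associated degradation gene rose and 2 fell. The cause of these shifts was not tested.

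With the replicate block, which has fewer degrees of freedom, 69 genes were higher and 154 lower, and 230 probe sets higher and 483 lower. In that fit 1 amino acid synthesis gene rose, 0 synthetases fell, 0 target regulators rose, 0 ER folding genes rose and 0 fell, 0 ER-associated degradation genes fell and 1 immediate early gene fell. Atf3 and Ddit3 passed with the block, while Trib3 (limma adjusted p = 0.0562), Chac1 (0.0654) and Ppp1r15a (0.0874) did not. T2 and T3 correlated best with the wild-type array of their own number, at 0.084 and 0.028, and T1 with W3, at 0.075.

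With 1 array left out, 70 to 249 genes were higher and 156 to 385 lower, and 131 to 393 probe sets were higher and 302 to 858 lower. Synthetases that fell numbered 0 to 1, target regulators that rose 0 to 1 and that fell 1 to 2, ER folding genes that rose 0 to 1 and that fell 0, ER-associated degradation genes that fell 0 to 1, and immediate early genes that rose 0 to 1 and that fell 0 to 2. The arm difference ran from 0.57 (without W1) to 0.82 (without W2). Low signal limits Atf3 in wild-type lenses and the second probe set of Ddit3.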
